A study of Mus musculus with 27 samples.

Results

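The mouse T cell precursor line ProT was compared 24 h after 4-hydroxytamoxifen with itself at 0 h, over all genes. The 6 libraries were taken by their titles, 3 at 24 h and 3 at 0 h, out of 27 libraries in the series. All of them are labelled as carrying CreER, a Cre recombinase that 4-hydroxytamoxifen activates, with LoxP sites and with TAL1 as the gene to be induced. The series also holds ProT libraries at 6, 12 and 18 h and thymus libraries from mice with TAL1 or an activated AKT, and it asks how TAL1 and the PI3K/AKT pathway act together in T cell acute lymphoblastic leukaemia. The labels name no library given vehicle alone and none kept untreated for 24 h, so the drug, the active recombinase, the time in culture and a change in TAL1 cannot be told apart. Nor do they state that the 3 libraries at each time are separate cultures, and p-values therefore cover only the spread among libraries, which may be technical.

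TAL1 is a basic helix-loop-helix transcription factor of blood stem cells and of the red cell and platelet lineages, which is normally switched off as T cells develop. It pairs with E proteins such as TCF3 and TCF12 and binds DNA in a complex with LMO, LDB1, GATA and RUNX1 proteins. In T cell leukaemia its unscheduled expression often goes with activated NOTCH1 signalling, which drives early T cell precursors to grow.

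Counts in genes came to 6258268, 5911082 and 4614643 in the libraries labelled 24 h and to 2660641, 3971083 and 5367020 in those labelled 0 h. The groups also stood apart in several technical measures. Reads in no annotated feature made up 17.8% to 18.4% of the counts in genes and HTSeq summary lines together at 24 h and 21.1% to 22.2% at 0 h. Mitochondrial genes took 9.71% to 10.1% of gene counts at 24 h and 13.5% to 15.4% at 0 h. The 50 most abundant genes took 27.3% to 29.0% at 24 h and 34.6% to 39.3% at 0 h. Library 1 at 6 h and library 1 at 12 h stood apart from their own groups. They enter the shared estimate of the spread, while the libraries at 24 h and 0 h differed within each group by a chi-square per degree of freedom of 2.63 to 5.38.

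Tal1 itself had 2068, 2026 and 1963 CPM (counts scaled to a total of 1000000 per library after TMM scaling) in the libraries labelled 24 h, against 2895, 3028 and 3098 CPM at 0 h. All 3 libraries at 24 h lay below all 3 at 0 h, so the transcript that the labels describe as induced was lower. The log2 fold change was -0.57 ± 0.12 (SE; edgeR, adjusted p = 0.00172). The table holds 1 count per gene and does not separate an introduced Tal1 sequence from the resident gene on chromosome 4. Every direction below is that of the libraries labelled 24 h and is not one of raised Tal1 counts.

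Markers of T cells were checked against the label. Of 13 T cell identity genes, 12 passed the filter on low counts, among them Bcl11b, Tcf7, Lck and the CD3 genes. Bcl11b, a factor that fixes T cell fate, averaged 305 ± 26 CPM at 24 h and 306 ± 17 CPM at 0 h (SD, n = 3 each). Of the 12, 2 were higher at 24 h and 3 lower with TMM scaling, and 3 higher and 0 lower with library size scaling. Whichever library was left out, 1 was higher. The number lower was then 1, or 3 without 24 h library 3. Cd2 had 2 counts over the 6 libraries, and Cd4, Cd8a and Cd8b1 had 0. The floor for a count of 0 was 0.479 to 1.13 CPM per library (3 counts of the library total without TMM factors, counting error only). Scaled by library size alone, the summed level of the T cell list was 2596 to 2699 CPM at 24 h and 2546 to 2736 CPM at 0 h, ranges that overlapped. Sums with TMM factors were not computed. These factors were 1.024 to 1.074 at 24 h and 0.891 to 0.96 at 0 h, and would lower the 24 h sums against those at 0 h.

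Over all 13610 genes tested, 1283 were higher at 24 h (9.43%) and 1266 were lower (9.3%) at an adjusted p below 0.05. Counts of list members below are to be read against these 2 shares. Most of the changes were small, with a median absolute log2 fold change of 0.62 among the genes called and 0.29 among all genes. An absolute log2 fold change of at least 1 was reached by 117 genes higher and 308 genes lower at 24 h. The 2 groups did not overlap in CPM for 1262 of the genes called higher and for 1238 of those called lower. Over all genes tested, called or not, 2772 lay higher without overlap (20.4%) and 2733 lower (20.1%). Lack of overlap was a condition for most genes named below, and is no further result for them. In bulk libraries a change in RNA per cell and a change in the share of cells of a kind cannot be told apart. Scaling by library size alone gave a median log2 fold change over all genes of 0.17, against -0.02 with TMM scaling, a shift of -0.19 by the TMM factors, and 2560 genes higher and 622 lower. The share of higher genes among all calls was then 80.5%, against 50.3% with TMM scaling. Without 0 h library 1 there were 816 genes higher and 746 lower, and without 0 h library 2 there were 738 and 709. Without 24 h library 1 there were 818 genes lower, and without 24 h library 2 there were 788.

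**Figure D1:**
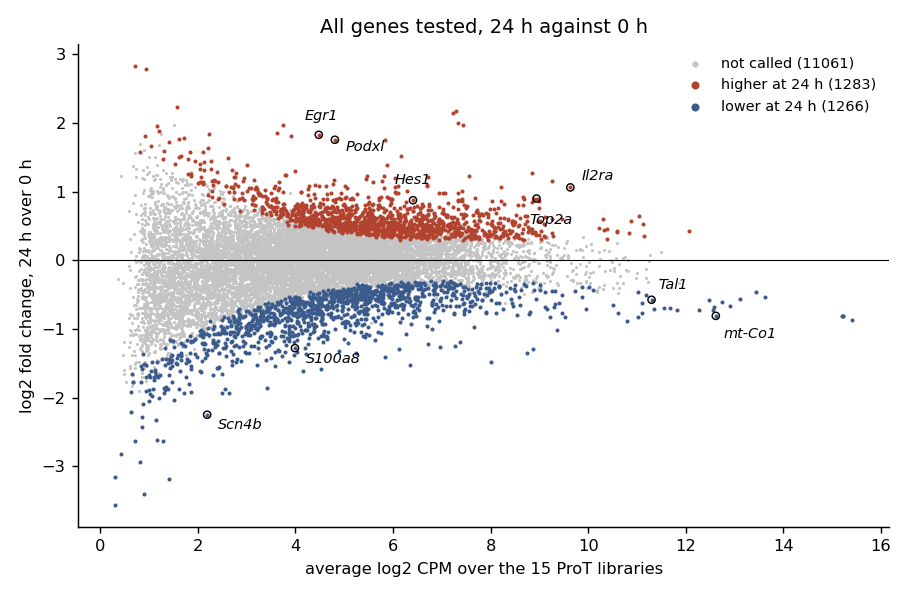
Log2 fold change of each of the 13610 genes tested, 24 h over 0 h (y axis), against its average log2 CPM over the 15 ProT libraries (x axis). Red points are the 1283 genes higher at 24 h, blue points the 1266 genes lower and grey points the rest. Circles mark genes described in the text, and the most abundant genes that were lower include mitochondrial ones such as mt-Co1.

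Most genes of mitosis were higher at 24 h. Of 27 genes, 25 were higher at 24 h and 0 were lower, with a median log2 fold change of 0.73, against 9.43% and 9.3% of all genes and a median of -0.02. With library size scaling their summed level was 2647 to 2766 CPM at 24 h and 1362 to 1556 CPM at 0 h. Between 20 and 25 members were called higher without any 1 of the 6 libraries.

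Top2a, the enzyme that untangles DNA before chromosomes part, had 633, 630 and 662 CPM at 24 h, against 346, 344 and 341 CPM at 0 h. The groups were far apart and each was tight, and the log2 fold change was 0.90 ± 0.12 (edgeR, adjusted p = 1.13e-05). Plk1, a kinase that drives entry into mitosis and spindle assembly, had 70.8, 66.7 and 72.8 CPM at 24 h, against 35.1, 40.2 and 36.0 CPM at 0 h. It rose by 0.91 ± 0.12 on the log2 scale (adjusted p = 1.32e-05), with every library at 24 h above every library at 0 h. Ccnb2, a B-type cyclin, had 50.9, 55.9 and 57.9 CPM at 24 h, against 26.4, 27.8 and 31.7 CPM at 0 h, again with no overlap. Its log2 fold change was 0.92 ± 0.12 (adjusted p = 1.39e-05). Bub1, a kinase of the spindle checkpoint, was scarcer, with 15.8, 17.2 and 15.3 CPM at 24 h and 8.78, 9.35 and 6.62 CPM at 0 h, and rose by 1.0 ± 0.24 on the log2 scale (adjusted p = 0.00511). The members that did not pass were Cenpa, the histone of the centromere, with a log2 fold change of -0.01 ± 0.12, and Kif23, a motor protein of the dividing cell's midzone, with 0.25 ± 0.12.

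Promoters of many mitosis genes carry a CHR motif (cell cycle genes homology region), a site at which the DREAM complex can repress them. The motif often lies beside CCAAT boxes bound by NF-Y. RefSeq promoter windows of GRCm38.p6, 250 bases before to 50 after the start, were searched on both strands for the CHR letters TTTGAA and for CCAAT. Neither motif contains the other. The CHR letters stood in 16 of the 22 mitosis genes with a window (72.7%) and CCAAT in 19 of them (86.4%), against 12.0% and 39.1% of all 8460 windows of genes tested. In the DNA replication list the shares were 7.7% and 65.4% of 26 windows. Both lists were chosen by function, so their shares describe their promoters and not the change at 24 h. Windows of genes higher at 24 h held the CHR letters in 16.5% and CCAAT in 46.2%, against 13.1% and 34.7% for genes lower. These 2 motifs were added after the mitosis result was known. The 6 windows below are those of the mitosis genes called higher whose CHR letters lie wholly within the 120 bases before the start. Each is shown 5′ to 3′ on the gene's strand, ending at the base before the RefSeq start, with capitals on the CHR letters (TTTGAA or TTCAAA) and the CCAAT letters (CCAAT or ATTGG).
Top2a, minus strand, chr11:99024190-99024309: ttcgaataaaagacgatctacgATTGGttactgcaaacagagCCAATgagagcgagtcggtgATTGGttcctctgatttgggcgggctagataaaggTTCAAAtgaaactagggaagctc
Cdk1, minus strand, chr10:69352913-69353032: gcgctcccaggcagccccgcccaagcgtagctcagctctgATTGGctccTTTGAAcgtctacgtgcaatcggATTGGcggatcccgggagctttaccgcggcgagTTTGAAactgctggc
Ube2c, plus strand, chr2:164769809-164769928: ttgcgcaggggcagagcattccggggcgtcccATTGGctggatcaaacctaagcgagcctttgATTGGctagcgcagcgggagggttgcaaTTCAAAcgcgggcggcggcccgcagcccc
Mki67, minus strand, chr7:135716380-135716499: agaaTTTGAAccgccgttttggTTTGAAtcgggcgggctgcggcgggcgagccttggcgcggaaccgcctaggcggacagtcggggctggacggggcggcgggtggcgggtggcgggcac
Kif11, plus strand, chr19:37376262-37376381: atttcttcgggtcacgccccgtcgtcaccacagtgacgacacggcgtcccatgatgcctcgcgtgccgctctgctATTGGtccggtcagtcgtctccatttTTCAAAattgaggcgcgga
Cdc20, minus strand, chr4:118437344-118437463: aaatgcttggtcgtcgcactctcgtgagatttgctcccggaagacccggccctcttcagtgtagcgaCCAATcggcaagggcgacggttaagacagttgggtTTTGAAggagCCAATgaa

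Within these 120 bases the first CHR base lies at -23 in Top2a, -29 in Ube2c, -19 in Kif11 and -18 in Cdc20, counted back from the start. Cdk1 has it at -71 and -15, and Mki67 at -116 and -98. The 40 bases after the start were found in a GENCODE M21 transcript of the gene for 4 of the 6 windows, but not for Mki67 and Kif11, so the positions in these rest on the RefSeq start alone. Cdk1, the kinase that triggers mitosis, rose by 0.76 ± 0.12 on the log2 scale at 24 h (edgeR, adjusted p = 5.87e-05). Ube2c, which marks mitotic proteins for destruction, rose by 0.75 ± 0.14 (adjusted p = 0.000559), and Mki67, the proliferation antigen, by 0.69 ± 0.10 (adjusted p = 4.79e-05). Kif11, the motor that separates spindle poles, rose by 0.61 ± 0.14 (adjusted p = 0.00409), and Cdc20, an activator of the anaphase complex, by 0.58 ± 0.16 (adjusted p = 0.0104). A match of these letters describes the window and does not show that a factor binds there.

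Motifs that TAL1 and its partners prefer were also searched. The E-box CANNTG stood in 62.6% of windows of genes higher at 24 h, 62.2% of those of genes lower and 61.9% of all windows. For CAGATG, an E-box form that TAL1 with E proteins prefers, the shares were 10.7%, 11.0% and 10.7%. It stood in 5 of 22 mitosis windows (22.7%) and 0 of 12 NOTCH windows. For the GATA letters AGATAA they were 5.6%, 6.2% and 6.2%.

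**Figure D2:**
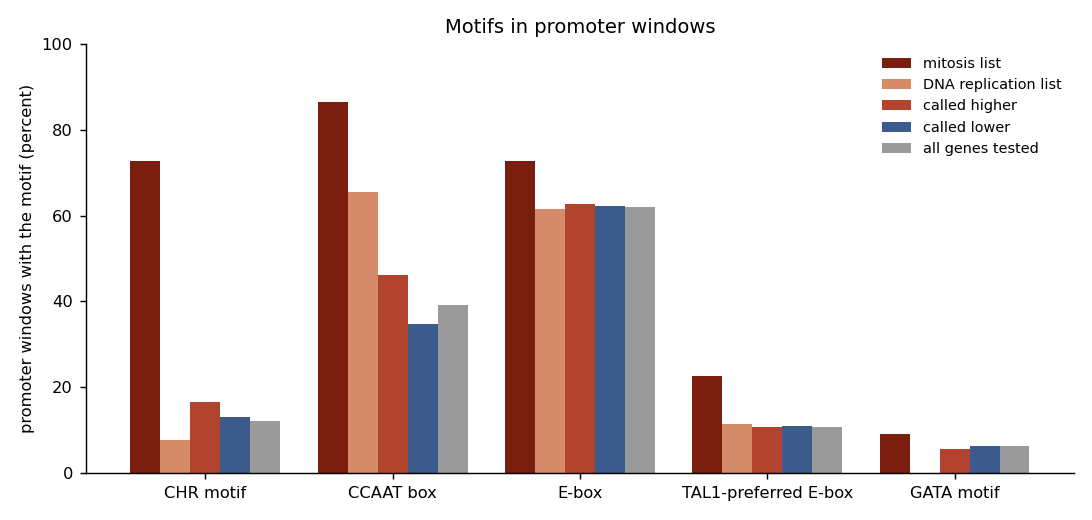
Share of promoter windows (percent, y axis) that hold each motif (x axis), for the mitosis list, the DNA replication list, genes higher at 24 h, genes lower at 24 h and all genes tested. For the CHR motif the shares are 72.7% (mitosis list), 16.5% (genes higher), 13.1% (genes lower) and 12.0% (all genes). For the E-box they are, in the same order, 72.7%, 62.6%, 62.2% and 61.9%.

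Of 33 genes of DNA replication, 17 were higher at 24 h and 0 were lower, with a median log2 fold change of 0.42. Cdc6, which loads the replicative helicase onto origins, had 42.6, 41.4 and 41.0 CPM at 24 h, against 20.9, 20.7 and 21.8 CPM at 0 h. That is a wide gap between tight groups, with a log2 fold change of 0.97 ± 0.15 (edgeR, adjusted p = 0.0001). Rrm1 and Rrm2 encode the subunits of ribonucleotide reductase, which makes DNA precursors. Rrm2 had 44.2, 52.1 and 44.6 CPM at 24 h, against 25.5, 23.2 and 31.5 CPM at 0 h, and rose by 0.79 ± 0.14 on the log2 scale (adjusted p = 0.00043). Rrm1 rose by 0.78 ± 0.13 (adjusted p = 0.000217), and Uhrf1, which guides maintenance DNA methylation, by 0.77 ± 0.13 (adjusted p = 0.000196). Pcna, the sliding clamp of DNA polymerases, had a log2 fold change of 0.31 ± 0.14 and did not pass (adjusted p = 0.108). Without 24 h library 1, 24 h library 2 or 0 h library 1, 11 replication genes passed, and without 0 h library 2 10 did. With library size scaling 27 passed.

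Clustered histone genes, which cells express in S phase, were among the steepest rises, though near-identical copies make the assignment of reads to single genes uncertain. Of 61 tested, 32 were higher at 24 h and 0 were lower, with a median log2 fold change of 0.86. Hist1h2ah had 156, 302 and 419 CPM at 24 h, against 39.3, 107 and 46.3 CPM at 0 h. The libraries of each group were widely spread but did not overlap, and the log2 fold change was 2.17 ± 0.42 (edgeR, adjusted p = 0.00077). This family was picked out after its values were seen.

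Regulators of the G1 phase moved in smaller numbers. Rb1, the retinoblastoma protein that holds back S phase genes, had 143, 133 and 130 CPM at 24 h, against 270, 257 and 270 CPM at 0 h. Its level fell by 0.97 on the log2 scale (SE 0.12; edgeR, adjusted p = 6.05e-06), and no library at 24 h came near those at 0 h. Ccnd3, a D-type cyclin that early T cells need, had 178, 176 and 167 CPM at 24 h, against 120, 126 and 123 CPM at 0 h, and rose by 0.50 ± 0.11 (adjusted p = 0.00286). In all, 3 of 14 D cyclin and CDK inhibitor genes were higher and Rb1 was the 1 lower. Ccnd2 and Cdk6 also passed, with log2 fold changes of 0.36 and 0.32, but Ccnd2 lost its call without any 1 library except 0 h library 3, and Cdk6 without any 1 of the 6. The inhibitors Cdkn1a and Cdkn1b did not pass, with log2 fold changes of 0.21 ± 0.14 and -0.09 ± 0.11.

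**Figure D3:**
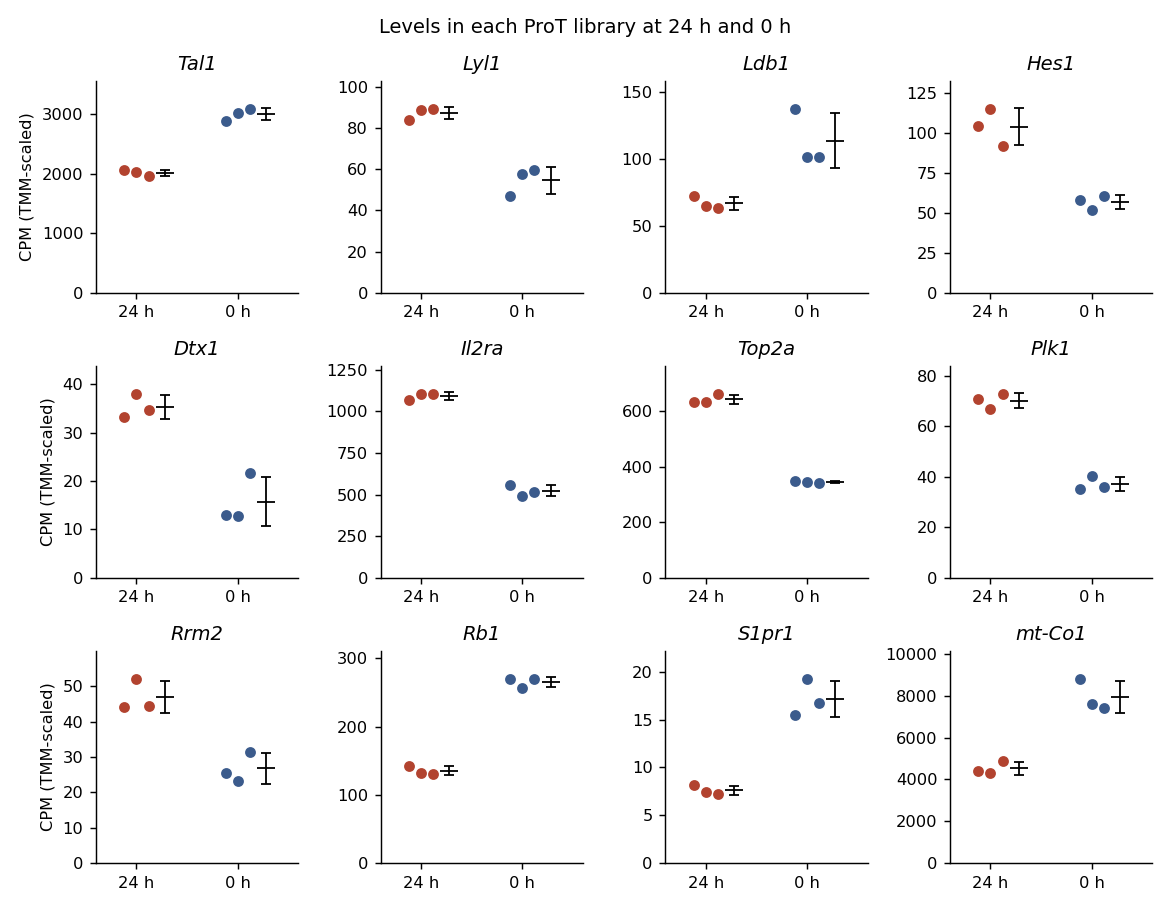
CPM of 12 genes in each library at 24 h (red, left) and 0 h (blue, right). Points are libraries, and the black marks are the mean and SD of 3 libraries. In every panel the 2 groups do not overlap, which was a condition for choosing the genes other than Tal1. Tal1, Ldb1, Rb1, S1pr1 and mt-Co1 are lower at 24 h and the others higher.

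Partners of TAL1 moved in both directions. Of 16 tested, 3 were higher and 3 lower at 24 h, and 6 and 3 with library size scaling. Tal1 is one of those lower. Ssbp2, which stabilises LDB1, had 36.2, 34.9 and 28.9 CPM at 24 h, against 77.4, 68.0 and 64.6 CPM at 0 h. All 3 libraries at 24 h were well below those at 0 h, with a log2 fold change of -1.05 ± 0.14 (edgeR, adjusted p = 1.8e-05). Ldb1, the adaptor that bridges the complex, had 72.4, 64.6 and 63.7 CPM at 24 h, against 138, 102 and 102 CPM at 0 h, also without overlap. Its log2 fold change was -0.75 ± 0.13 (adjusted p = 0.000204). Lyl1, the closest relative of TAL1, went the other way, with 84.2, 89.0 and 89.6 CPM at 24 h and 47.3, 57.5 and 59.6 CPM at 0 h. It rose by 0.66 ± 0.12 on the log2 scale (adjusted p = 0.000278). Ssbp3 and Runx1 passed with log2 fold changes of 0.43 ± 0.14 (adjusted p = 0.0258) and 0.34 ± 0.12 (adjusted p = 0.0386). Neither held its call without 24 h library 2 or 0 h library 2, which left Lyl1 as the only partner higher. Ssbp3 also lost it without 24 h library 3, and Runx1 without library 1 of either group. Lmo2, a bridging protein that leukaemias with TAL1 often share, averaged 6.68 ± 1.4 CPM at 24 h and 11.1 ± 3.3 CPM at 0 h (SD, n = 3 each) and did not pass (adjusted p = 0.0633).

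Among E proteins and their inhibitors, 0 of 6 genes were higher and 2 were lower. The E proteins Tcf3 and Tcf12 had log2 fold changes of 0.00 ± 0.12 and -0.01 ± 0.11. Id2, which blocks E proteins from binding DNA, had 74.4, 64.2 and 63.3 CPM at 24 h, against 105, 90.4 and 101 CPM at 0 h. The groups were apart and the log2 fold change was -0.55 ± 0.13 (edgeR, adjusted p = 0.00364), but with library size scaling it no longer passed (adjusted p = 0.0733). Id1 passed at 0.0441 and lost its call with that scaling (adjusted p = 0.151) and without 24 h libraries 1 or 2 or 0 h libraries 1 or 2.

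Factors of the leukaemia core circuit and TAL1 targets numbered 17 tested, with 6 higher and 1 lower at 24 h. Erg, an ETS factor of blood stem cells and leukaemia, had 18.7, 22.4 and 24.6 CPM at 24 h, against 7.95, 8.50 and 13.0 CPM at 0 h. It rose by 1.09 ± 0.19 on the log2 scale (edgeR, adjusted p = 0.000276) with no overlap. Trib1, a pseudokinase that steers protein degradation, rose by 0.68 ± 0.15 (adjusted p = 0.00236). Without 24 h library 2, 0 h library 1 or 0 h library 2, 3 members remained higher. Tox, a nuclear factor of T cell development, was the member that fell, by 0.50 on the log2 scale (SE 0.13; adjusted p = 0.00844), and it did not pass without 0 h library 3 (adjusted p = 0.0624) or with library size scaling (adjusted p = 0.121).

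Several NOTCH targets were higher at 24 h. Of 15 NOTCH receptors and targets, 6 were higher and 1 was lower at 24 h, and 4 or 5 were higher without any 1 library. The 6 were Notch1, Hes1, Dtx1, Nrarp, Il2ra and Igf1r. Dtx1, a ubiquitin ligase of the pathway, had 33.3, 38.1 and 34.8 CPM at 24 h, against 13.0, 12.8 and 21.6 CPM at 0 h. Its log2 fold change was 1.11 ± 0.25 (edgeR, adjusted p = 0.00243), and the lowest library at 24 h was above the highest at 0 h. Hes1, the repressor that carries much of the NOTCH signal in T cell precursors, had 104, 115 and 91.7 CPM at 24 h, against 57.7, 51.6 and 60.2 CPM at 0 h. It rose by 0.88 ± 0.17 on the log2 scale (adjusted p = 0.000857), again with no overlap. Nrarp, a feedback inhibitor of the pathway, had 22.7, 28.8 and 18.7 CPM at 24 h, against 10.04, 14.2 and 10.9 CPM at 0 h, and rose by 1.0 ± 0.21 (adjusted p = 0.00131). The receptor Notch1 averaged 106 ± 5.6 CPM at 24 h and 81.2 ± 4.6 CPM at 0 h (SD, n = 3 each), a log2 fold change of 0.38 ± 0.11 (adjusted p = 0.0149). Hes5, another direct target, averaged 4.34 ± 2.3 CPM at 24 h and 5.15 ± 0.67 CPM at 0 h and did not pass. Nor did Myc, at 39.6 ± 7.2 CPM at 24 h and 42.7 ± 2.2 CPM at 0 h (log2 fold change -0.10 ± 0.16).

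Il2ra, the alpha chain of the interleukin 2 receptor and a marker of early thymocytes, was among the 6 named genes with the largest gain in CPM. It had 1067, 1106 and 1104 CPM at 24 h, against 559, 493 and 518 CPM at 0 h. Both groups were tight and widely separated, with a log2 fold change of 1.06 ± 0.16 (edgeR, adjusted p = 5.14e-05). Socs2, a suppressor of cytokine signalling, had 106, 112 and 103 CPM at 24 h, against 64.8, 69.7 and 62.5 CPM at 0 h, and rose by 0.71 ± 0.11 (adjusted p = 6.74e-05). Pim1, a survival kinase, had 402, 411 and 357 CPM at 24 h, against 251, 289 and 281 CPM at 0 h. That was a rise of 0.51 ± 0.10 without overlap (adjusted p = 0.00123). Stat5b itself rose by 0.59 ± 0.13 (adjusted p = 0.00184). Over 27 cytokine receptor and STAT genes 7 were higher and 3 lower, and the median log2 fold change was 0.05. Without 24 h library 2 or 0 h library 1 there were 4 higher, and without those or 0 h library 2 there was 1 lower. Ifnar1, a chain of the type I interferon receptor, had 8.59, 10.6 and 11.7 CPM at 24 h, against 20.9, 17.3 and 18.3 CPM at 0 h, and its log2 fold change was -0.87 ± 0.20 (adjusted p = 0.00285). Il7r, the interleukin 7 receptor chain, had a log2 fold change of -0.16 ± 0.15 and did not pass (adjusted p = 0.484).

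**Figure D4:**
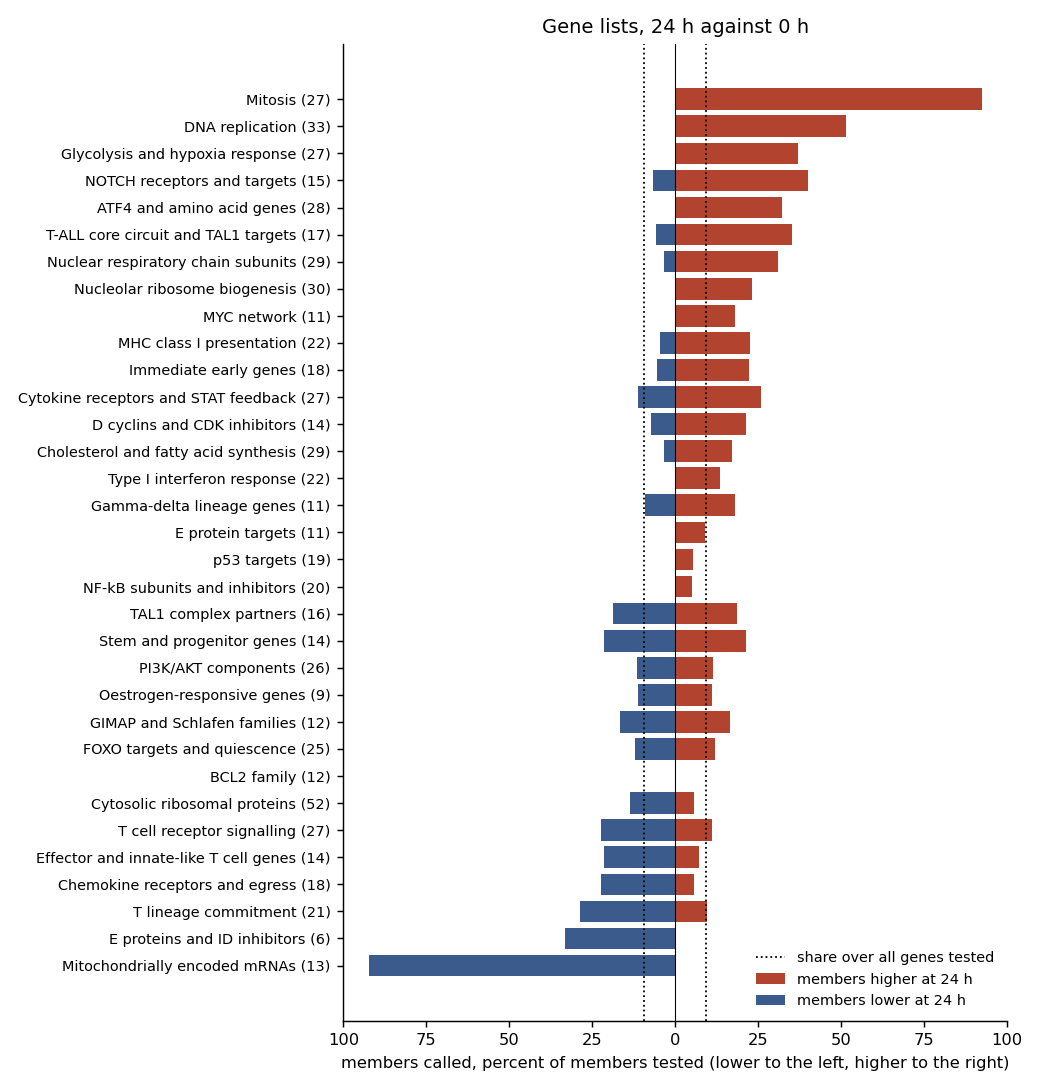
Members called higher at 24 h (red, to the right) and lower at 24 h (blue, to the left) in each pathway list, as percent of members tested, with the number tested in brackets. Dotted lines mark the shares over all genes tested, 9.43% higher and 9.3% lower. Mitosis stands at the top with 25 of 27 members higher, and mitochondrially encoded mRNAs at the bottom with 12 of 13 lower.

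Genes of T lineage commitment were called lower more often than higher, at 6 and 2 of 21, but the direction of the list turned with the scaling. Its median log2 fold change was -0.16 with TMM factors and 0.03 with library size alone, where 5 were higher and 0 lower. Cd247, the zeta chain of the T cell receptor complex, had 91.5, 83.3 and 82.1 CPM at 24 h, against 123, 111 and 128 CPM at 0 h. The groups were apart, with a log2 fold change of -0.49 ± 0.10 (edgeR, adjusted p = 0.00139), though it did not pass with library size alone (adjusted p = 0.0823). Lat, the adaptor that gathers receptor signals, had 57.7, 53.9 and 61.1 CPM at 24 h, against 81.6, 80.8 and 83.9 CPM at 0 h, also without overlap. Its adjusted p was 0.00145, and 0.0559 under that scaling. Thy1, a surface marker of T cells, rose by 0.51 ± 0.12 (adjusted p = 0.00503) and was called under each alternative other than the test against a minimum fold change, which called no gene. Without 0 h library 3, 3 members were lower, and 1 was higher whichever library was left out.

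In T cell receptor signalling 3 of 27 genes were higher, near the share over all genes (9.43%), and 6 were lower (9.3% over all genes). The median log2 fold change was 0.05. The balance turned with the scaling, at 6 higher and 3 lower with library size alone, and was 1 and 6 with upper-quartile factors. Cd28, the costimulatory receptor, had 22.1, 21.02 and 17.6 CPM at 24 h, against 41.8, 38.3 and 37.2 CPM at 0 h. No library at 24 h reached those at 0 h, and the log2 fold change was -0.93 ± 0.16 (edgeR, adjusted p = 0.000217). The count of higher genes was 0 or 1 without any 1 library, and that of lower genes was 3 without 24 h library 2. The gamma-delta list had 2 of 11 higher and 1 lower, the same counts without any 1 library. Tcrg-C1, a constant segment of the gamma receptor chain, had 595, 640 and 621 CPM at 24 h, against 353, 350 and 394 CPM at 0 h. It rose by 0.76 ± 0.12 on the log2 scale (adjusted p = 0.000114), and the like segment Tcrg-C2 by 0.46 ± 0.11 (adjusted p = 0.0043), with reads between such copies uncertain. Cd163l1, a scavenger receptor of gamma-delta T cells, had 36.5, 31.4 and 30.1 CPM at 24 h, against 64.0, 66.0 and 63.7 CPM at 0 h, and its log2 fold change was -0.98 ± 0.15 (adjusted p = 5.51e-05).

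Stem and progenitor genes were split, with 3 of 14 higher and 3 lower, against 9.43% and 9.3% over all genes. With library size scaling 5 were higher and 1 lower. Without 24 h library 1, 24 h library 2 or 0 h library 1, 2 were higher and 2 lower. Mef2c, a factor of lymphoid progenitors and of immature T cell leukaemia, had 16.1, 18.0 and 18.9 CPM at 24 h, against 36.4, 35.1 and 42.0 CPM at 0 h. Every library at 24 h lay far below those at 0 h, with a log2 fold change of -1.11 ± 0.14 (edgeR, adjusted p = 1.11e-05). Mycn, a MYC family factor, had 32.0, 35.1 and 33.1 CPM at 24 h, against 23.8, 17.3 and 20.6 CPM at 0 h. It rose by 0.71 ± 0.15 (adjusted p = 0.0014) with no overlap, and with Mxd3, a MAX partner that rose by 0.53 ± 0.13 (adjusted p = 0.00518), it made up the 2 of 11 MYC network genes that passed.

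The PI3K/AKT components had 3 of 26 higher and 3 lower at 24 h, shares near those over all genes (9.43% and 9.3%). With library size scaling 5 were higher and 0 lower, with upper-quartile factors 2 and 5, and with the 6 libraries fitted alone 5 and 7. Pik3r2, a regulatory subunit of PI3K, had 24.7, 22.6 and 24.0 CPM at 24 h, against 13.4, 12.2 and 11.7 CPM at 0 h. It rose by 0.95 ± 0.19 on the log2 scale with no overlap (edgeR, adjusted p = 0.000805) and was the 1 member higher without any of 24 h libraries 1 and 2 and 0 h libraries 1 and 2. FOXO targets and quiescence genes, which AKT restrains, gave 3 of 25 higher and 3 lower, with a median of -0.18 and, under library size scaling, 0.01. The egress receptor S1pr1 had 8.13, 7.43 and 7.22 CPM at 24 h, against 15.5, 19.3 and 16.7 CPM at 0 h, and its log2 fold change was -1.18 ± 0.24 (adjusted p = 0.00123). Of the lower FOXO targets 1 was left without 24 h library 1, 24 h library 2, 0 h library 1 or 0 h library 2.

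Adhesion and chemokine receptor genes that were lower at 24 h numbered 4 of 18, and 1 was higher. Itgae, the integrin chain that binds E-cadherin, had 23.2, 23.5 and 16.6 CPM at 24 h, against 54.4, 50.5 and 44.4 CPM at 0 h. The log2 fold change was -1.21 ± 0.16 (edgeR, adjusted p = 1.13e-05), with no overlap. Ccr9, the receptor for the thymic and gut chemokine CCL25, had 4.29, 7.43 and 5.52 CPM at 24 h, against 18.4, 11.1 and 11.3 CPM at 0 h, and also lay lower throughout, with a log2 fold change of -1.19 ± 0.28 (adjusted p = 0.00342). It is the member of the NOTCH list that was lower. S1pr1 and Gpr183, an oxysterol receptor with a log2 fold change of -0.87 ± 0.22 (adjusted p = 0.0074), complete the count. Ccr7, the 1 member that was higher, lost its call without 24 h library 2, 24 h library 3, 0 h library 1 or 0 h library 2. The effector list had 1 of 14 genes higher, near the share over all genes (9.43%), and none was higher with upper-quartile factors or without any 1 library except 0 h library 2. It had 3 lower, among them Maf and Rora, transcription factors of helper and innate-like T cells. Maf fell by 0.91 on the log2 scale (SE 0.18; adjusted p = 0.000828), and Rora by 0.65 (SE 0.12; adjusted p = 0.000357).

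Transcripts of the mitochondrial genome were lower as a group. Of 13 mRNAs, 0 were higher and 12 lower, with a median log2 fold change of -0.68. The median was -0.49 with library size scaling, where 10 passed, and 7 passed without 0 h library 1. mt-Co1, a core subunit of complex IV, had 4426, 4292 and 4893 CPM at 24 h, against 8821, 7613 and 7414 CPM at 0 h. The groups did not overlap, and the log2 fold change was -0.81 ± 0.19 (edgeR, adjusted p = 0.00449). mt-Nd3, a subunit of complex I, had 1278, 1308 and 1258 CPM at 24 h, against 2703, 2234 and 2137 CPM at 0 h, and its log2 fold change was -0.88 ± 0.18 (adjusted p = 0.00139). The large mitochondrial ribosomal RNA mt-Rnr2 had 32940, 30872 and 32337 CPM at 24 h, against 64092, 60736 and 51498 CPM at 0 h, a log2 fold change of -0.87 ± 0.19 (adjusted p = 0.00221). Only mt-Nd6 did not pass among the mRNAs, at -0.33 ± 0.13 (adjusted p = 0.0759).

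Other abundant RNA moved with these transcripts. Reads on the 18S ribosomal RNA gene Rn18s-rs5 made up 3.14% to 3.79% of gene counts at 24 h and 4.42% to 5.81% at 0 h. Mitochondrial ribosomal RNA made up 4.40% to 4.64% of them at 24 h, against 6.28% to 7.23% at 0 h. Their part in the results was not tested. Leaving out the 391 mitochondrial and ribosomal RNA genes, an alternative chosen after the data were seen, gave 1250 genes higher and 1289 lower.

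Nuclear genes of the respiratory chain ran the other way, with 9 of 29 higher at 24 h and 1 lower. Ndufa9, a complex I subunit, had 57.2, 54.2 and 59.6 CPM at 24 h, against 32.2, 41.4 and 37.0 CPM at 0 h. It rose by 0.62 ± 0.14 on the log2 scale with no overlap (edgeR, adjusted p = 0.00283), and Uqcrc1, a core protein of complex III, by 0.61 ± 0.13 (adjusted p = 0.00199). Ndufa4, the member that was lower, had 59.6, 78.2 and 73.2 CPM at 24 h and 131, 106 and 104 CPM at 0 h. Its call was lost with DESeq2 and without library 1 of either group. The count of members higher was 5 without 0 h library 2 and 14 with the 6 libraries fitted alone.

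Glycolysis and hypoxia genes had 10 of 27 higher at 24 h and 0 lower, with 7 to 10 higher without any 1 library. All 10 belong to the glycolytic pathway or its control. Pkm, pyruvate kinase, had 307, 320 and 314 CPM at 24 h, against 162, 171 and 199 CPM at 0 h. It rose by 0.82 ± 0.15 on the log2 scale (edgeR, adjusted p = 0.000437), with no overlap. Tpi1, triose phosphate isomerase, had 59.3, 57.7 and 49.2 CPM at 24 h, against 24.3, 30.3 and 32.7 CPM at 0 h, and rose by 0.91 ± 0.16 (adjusted p = 0.000247). Pfkl, a phosphofructokinase, rose by 0.96 ± 0.19 (adjusted p = 0.00107), Aldoa, an aldolase, by 0.62 ± 0.15 (adjusted p = 0.00386), and Ldha, lactate dehydrogenase, by 0.55 ± 0.14 (adjusted p = 0.00586). Hypoxia genes that make no glycolytic enzyme did not pass. Bnip3, a mitophagy receptor, averaged 9.80 ± 0.80 CPM at 24 h and 9.21 ± 1.6 CPM at 0 h, and Ddit4, an inhibitor of mTOR, 46.8 ± 3.4 CPM at 24 h and 47.7 ± 4.0 CPM at 0 h (SD, n = 3 each).

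ATF4 and amino acid genes had 9 of 28 higher at 24 h and 0 lower. Mthfd2, a mitochondrial enzyme of one-carbon metabolism, had 108, 104 and 105 CPM at 24 h, against 51.9, 64.3 and 59.4 CPM at 0 h. Its log2 fold change was 0.85 ± 0.11 (edgeR, adjusted p = 1.56e-05), from tight and well separated groups. Slc7a5, a transporter of large neutral amino acids, rose by 0.55 ± 0.16 (adjusted p = 0.0138), but not past the threshold without 24 h library 2 (adjusted p = 0.0502) or 0 h library 2 (adjusted p = 0.11). The number of members higher was 4 without 24 h library 2 and 5 without 0 h library 1. It was 16 with library size scaling, with the 6 libraries fitted alone and without library 1 at 6 h and at 12 h.

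Nucleolar genes had 7 of 30 higher and 0 lower. Npm1, a histone and ribosome chaperone often mutated in leukaemia, had 828, 845 and 850 CPM at 24 h, against 518, 549 and 598 CPM at 0 h. It rose by 0.60 ± 0.12 on the log2 scale (edgeR, adjusted p = 0.000914), and Odc1, the first enzyme of polyamine synthesis, by 0.76 ± 0.15 (adjusted p = 0.000826). Counts of higher members were 3 without 24 h library 1, 4 without 0 h library 1, 2 without 0 h library 2, 12 in the fit of the 6 libraries alone, 11 without library 1 at 6 h and at 12 h, and 15 with library size scaling. Cytosolic ribosomal protein genes, with many near-identical pseudogenes, had 3 of 52 higher and 7 lower. Their median was -0.13, and 0.06 with library size scaling, where 7 were higher and 2 lower. The lower count was 0 without 24 h library 1 or 0 h library 1, 1 without library 2 of either group, and 18 when the 6 libraries were fitted alone.

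Sterol and fatty acid genes had 5 of 29 higher and 1 lower. Idi1, which makes an isoprenoid precursor, had 31.6, 29.9 and 19.7 CPM at 24 h, against 54.8, 51.9 and 48.9 CPM at 0 h. The groups did not overlap, and the log2 fold change was -0.91 ± 0.21 (edgeR, adjusted p = 0.00279). Of the higher members 3 were left without 24 h library 1 and 2 without 24 h library 2, 0 h library 1 or 0 h library 2.

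Class I antigen presentation genes had 5 of 22 higher and 1 lower, and 5 were higher whichever library was left out. With library size scaling 10 were higher and 1 lower, and with the 6 libraries fitted alone 9 and 5. Calr, a chaperone of class I assembly, had 278, 242 and 271 CPM at 24 h, against 148, 132 and 143 CPM at 0 h. The gap was wide, with a log2 fold change of 0.90 ± 0.13 (edgeR, adjusted p = 2.82e-05). B2m, the light chain of class I molecules, had 1545, 1488 and 1594 CPM at 24 h, against 1200, 1046 and 1142 CPM at 0 h, and rose by 0.45 ± 0.11 (adjusted p = 0.00661). H2-Q4 was the member that was lower, and it lost its call without library 1 or 2 of either group. Type I interferon genes had 3 of 22 higher and 0 lower, and 6 higher with library size scaling. Of the 3, Isg20, an RNA exonuclease, held its call whichever library was left out. It had 23.5, 29.9 and 29.5 CPM at 24 h, against 13.8, 15.3 and 10.5 CPM at 0 h, and rose by 1.09 ± 0.19 (adjusted p = 0.000254).

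In the BCL2 family, which sets the threshold for cell death, 0 of 12 genes were higher and 0 lower by edgeR, with 3 at an unadjusted p below 0.05, and DESeq2 called 0. Bcl2 averaged 405 ± 26 CPM at 24 h and 429 ± 7.4 CPM at 0 h (SD, n = 3 each). Of the p53 targets 1 of 19 was higher (Gtse1) and 0 were lower, and of the NF-kB genes 1 of 20 was higher (Nfkbie) and 0 were lower. Both of those genes lost their calls when single libraries were left out. E protein targets had 1 of 11 higher (Hes1), near the share over all genes (9.43%). Oestrogen-responsive genes, listed because 4-hydroxytamoxifen binds oestrogen receptors, had 1 of 9 higher (Xbp1) and 1 lower (Nrip1). These shares were near those over all genes (9.43% and 9.3%). Nrip1 lost its call with library size scaling (edgeR, adjusted p = 0.249) and without 24 h library 1 or 2 or 0 h library 2. Esr1 had 29 counts over the 6 libraries. GIMAP and Schlafen genes, small families of lymphocyte regulators, had 2 of 12 higher and 2 lower, and of these Slfn8 had a log2 fold change of -0.77 (edgeR, adjusted p = 0.0014).

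The 15 largest rises among named genes were a mixed group that included Egr1 and 3 histone genes, and 12 of them kept their call whichever library was left out. Several rose from low levels at 0 h, namely Vat1l, Cntn1, Cldn2, Cryl1, Hist1h3a, Dkkl1, Mcpt8 and Lonrf1. Of these, Vat1l had the lowest mean at 0 h, 1.70 CPM, from 4, 8 and 6 counts. Lonrf1 had the highest, 2.53 CPM, from 3, 12 and 15 counts. Podxl, the sialomucin podocalyxin, had 34.7, 31.3 and 35.4 CPM at 24 h, against 10.5, 11.9 and 8.18 CPM at 0 h. Its log2 fold change was 1.76 ± 0.19 (edgeR, adjusted p = 1.76e-06), with the groups far apart. Aldh1b1, a mitochondrial aldehyde dehydrogenase, had 79.3, 83.6 and 79.8 CPM at 24 h, against 28.4, 23.5 and 21.6 CPM at 0 h, and rose by 1.75 ± 0.20 (adjusted p = 2.05e-06). Ccdc109b, an inhibitory subunit of the mitochondrial calcium uniporter, had 15.5, 15.5 and 18.3 CPM at 24 h, against 3.35, 4.82 and 4.87 CPM at 0 h. It rose by 1.86 ± 0.29 (adjusted p = 8.08e-05), and Serpina3g, a protease inhibitor of activated lymphocytes, by 1.82 ± 0.24 (adjusted p = 1.35e-05). Cldn2 lost its call without 0 h library 3, Mcpt8 without 0 h library 2, and Dkkl1 without 0 h library 1 or 3.

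The 15 largest falls also included genes at low levels. Scn4b, a sodium channel subunit, had 2.45, 0.948 and 1.70 CPM at 24 h, against 10.04, 7.65 and 7.40 CPM at 0 h. Its log2 fold change was -2.25 ± 0.40 (edgeR, adjusted p = 0.000357), at few counts in each library. Ahnak, a giant scaffold protein of the membrane skeleton, had 4.29, 6.16 and 4.46 CPM at 24 h, against 18.0, 16.4 and 19.9 CPM at 0 h, a log2 fold change of -1.86 ± 0.23 (adjusted p = 6.35e-06). Slc24a3, a sodium, calcium and potassium exchanger, had 10.7, 10.1 and 8.07 CPM at 24 h, against 28.4, 32.3 and 28.4 CPM at 0 h. It lay lower in every library, at -1.61 ± 0.17 (adjusted p = 1.34e-06). Cmah, which converts one sialic acid into another, stood at a log2 fold change of -1.58 ± 0.17 (adjusted p = 1.76e-06). Of the 15, Fstl4 lost its call without 24 h libraries 2 or 3 or 0 h library 2, and Slc35g2 without 24 h libraries 1 or 3 or 0 h libraries 1 or 2.

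Markers of other cells did not move as one. Sums over these lists were scaled by library size alone, without TMM factors. B cell genes summed to 11.2 to 20.4 CPM at 24 h and 19.9 to 27.95 CPM at 0 h, which just overlapped under that scaling. Of the 10 B cell genes 2 were at 0 in all 6 libraries (Ms4a1 and Pax5). Ighm, the heavy chain of IgM, had 5.52, 6.95 and 8.28 CPM at 24 h, against 16.7, 17.3 and 19.3 CPM at 0 h, and its log2 fold change was -1.39 ± 0.21 (edgeR, adjusted p = 4.79e-05). Myeloid genes summed to 69.2 to 80.4 CPM at 24 h and 72.5 to 94.1 CPM at 0 h, with 2 of 9 tested lower. These were S100a8, at 11.7, 6.95 and 11.2 CPM at 24 h and 26.4, 21.8 and 24.3 CPM at 0 h, and its partner S100a9. NK and innate lymphoid genes had 5 of 11 lower with TMM scaling, among them Id2 and Rora. By library size alone they summed to 721 to 744 CPM at 24 h and 717 to 766 CPM at 0 h, ranges that overlapped under that scaling. Without 24 h library 3, 0 h library 1 or 0 h library 2, 3 genes of the list were lower. With library size scaling 2 were higher and 2 lower. Dendritic cell genes had 1 of 8 higher and 2 lower, and erythroid genes 0 of 6 higher and 1 lower, which was Tfrc, the transferrin receptor that dividing cells also use. Stromal genes had 6 of 14 and endothelial genes 2 of 8 at 0 in all 6 libraries. The part of such cells in the results was not tested.

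Megakaryocyte and mast cell genes had 3 of 6 higher (Cpa3, Itga2b and Mcpt8) and 1 lower (Kit). Scaled by library size alone, the list summed to 914 to 1019 CPM at 24 h and 641 to 738 CPM at 0 h. Kit, the stem cell factor receptor, lost its call with library size scaling (adjusted p = 0.428), without a filter and without any 1 library except 0 h library 3. Among those higher was Cpa3, a mast cell protease that early T cell precursors also express, with 462, 457 and 428 CPM at 24 h, against 251, 247 and 273 CPM at 0 h. It rose by 0.80 ± 0.11 on the log2 scale with no overlap (edgeR, adjusted p = 1.13e-05). Itga2b, the integrin chain of platelets, had 37.9, 38.1 and 39.3 CPM at 24 h, against 31.4, 18.7 and 18.9 CPM at 0 h, and rose by 0.79 ± 0.19 (adjusted p = 0.00391). Defining genes of these cells stayed near 0, with 5 counts of Pf4, 6 of Vwf, 1 of Gp9 and 2 of Ms4a2 over the 6 libraries.

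A further contrast, 24 h against 18 h, in the same fit over the 15 libraries, called 2 genes higher (0.0147%) and 20 lower (0.147%), with 1223 at an unadjusted p below 0.05. It called 118 higher and 223 lower when only its 6 libraries were fitted, and 26 and 87 without library 1 at 6 h and at 12 h. The 2 higher were Plk1 and Mthfd2. Mthfd2 averaged 106 ± 1.9 CPM at 24 h and 73.5 ± 3.9 CPM at 18 h (adjusted p = 0.0334), and Plk1 70.1 ± 3.1 CPM at 24 h and 45.5 ± 3.0 CPM at 18 h (edgeR, adjusted p = 0.0112; SD, n = 3 each).

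Among the 20 lower were Egr1 and Junb, immediate early factors. At 24 h against 0 h, 4 of 18 genes of that class were higher (Egr1, Junb, Jund and Klf4) and 1 was lower (Klf6). Without 0 h library 1 or 2, 1 was higher, and without 24 h library 1 or 2 or 0 h library 3, 2 were. Egr1 had 15.8, 22.6 and 14.6 CPM at 24 h, with means of 79.8 CPM at 18 h and 4.96 CPM at 0 h. It was thus lower than at 18 h (adjusted p = 3.07e-07) and higher than at 0 h, where the log2 fold change was 1.83 ± 0.29 (edgeR, adjusted p = 0.000114). Some hypoxia genes were higher at 18 h and at like levels at 24 h and 0 h. Bnip3 averaged 9.80 CPM at 24 h and 23.9 CPM at 18 h (adjusted p = 0.00593), Ankrd37 2.76 CPM at 24 h and 12.6 CPM at 18 h (adjusted p = 0.00593), and Pdk1, which shuts pyruvate out of mitochondria, 55.8 CPM at 24 h and 89.7 CPM at 18 h (adjusted p = 0.00783). Cdkn1b, an inhibitor of cyclin-dependent kinases, averaged 103 ± 2.1 CPM at 24 h and 158 ± 12 CPM at 18 h (adjusted p = 0.00783). The number of calls in this contrast turned on single libraries. It was 0 or 1 higher and 1 to 27 lower without any 1 of its 6 libraries, with 1 lower without 24 h library 3, 2 without 18 h library 2, 3 without 24 h library 1, 6 without 18 h library 1 and 8 without 24 h library 2.

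**Figure D5:**
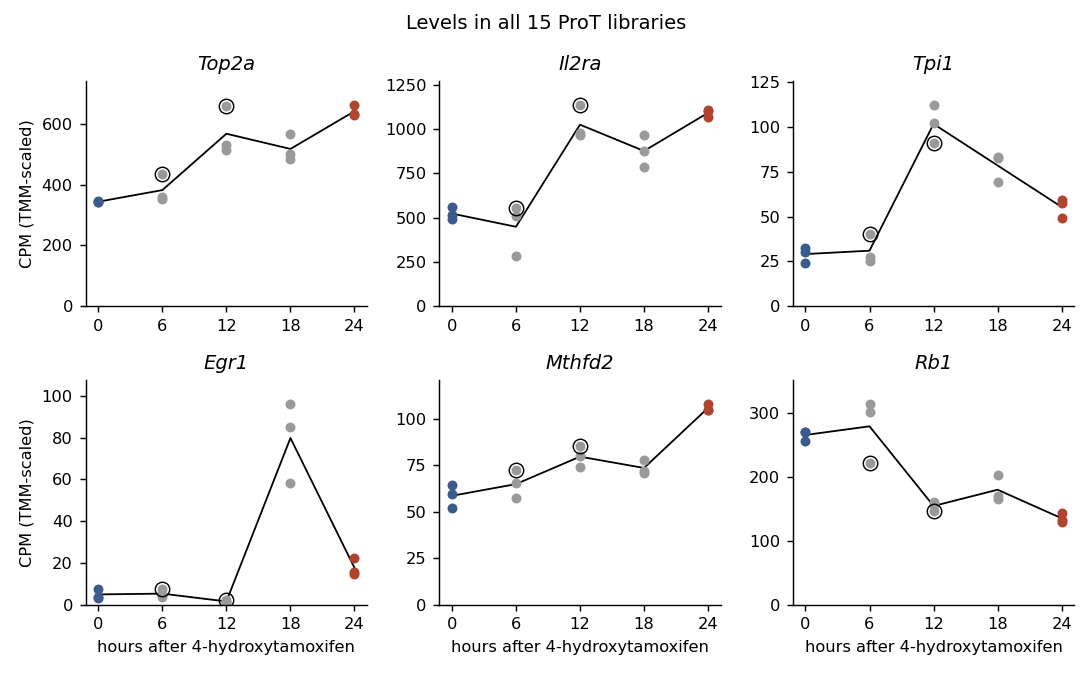
CPM of 6 genes in all 15 ProT libraries against hours after 4-hydroxytamoxifen, with 0 h in blue, 24 h in red, other times in grey and lines through the means. Black rings mark library 1 at 6 h and at 12 h, which stood apart from their groups. Egr1 peaks at 18 h with a mean of 79.8 CPM, Tpi1 is highest at 12 h, and Mthfd2 is highest at 24 h.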

How the data were processed

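RNA of ProT cells was sequenced with Illumina libraries, per the labels' protocols. The authors deposited whole-number counts per gene, not normalized. The tools listed are HISAT2, HTSeq, SAMtools and FastQC, and the build names are GRCm38 and mm10, per the submitters' processing notes. Versions, annotation and strand setting are not given in the sources used here, so overlapping and antisense genes are uncertain. The table held 46078 gene identifiers, of which 45229 were found in GENCODE M21. Lines of HTSeq that name no gene, 5 in number, were left out, and 27 symbols turned into dates were restored.

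Genes were tested with edgeR 4.0.16 in R 4.3.3 (TMM factors, filterByExpr, quasi-likelihood F test, Benjamini-Hochberg adjustment, threshold 0.05) over the 15 ProT libraries, 3 per time. Tests were two-sided, and the code was tested on simulated data. CPM of single genes used TMM-scaled totals, while sums over lists and the floor used library totals alone. Each SE was computed from the F statistic and the size of the log2 fold change. The biological coefficient of variation was 11.6%.

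Named genes are Tal1, then genes with an adjusted p below 0.05, no overlap between the groups, at least 5 CPM in the higher group and a proper gene name. From these came the 15 largest rises and falls, the 6 largest gains and losses in CPM, and up to 4 members per list and direction (169 genes). Members that did not pass are named with their values, and Mki67, Cdk1, Ube2c, Kif11 and Cdc20 by their promoters. Notch1, Igf1r, Ldha and the genes of the contrast with 18 h were chosen after their values were seen. There were 33 pathway lists and 9 marker lists, and no set test was made. The members and lists were chosen with earlier results of these data known. DESeq2 1.42.0, other scalings, other filters, a replicate block and leaving out libraries were tried. Promoters were read from RefSeq on GRCm38.p6, and gene positions from GENCODE M21. Results for a few genes are not reported here.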

Additional observations from a re-analysis of the deposited data

How the results depend on the processing

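Of the 169 named genes, 99 kept their call under every alternative in which they were tested other than the minimum fold change below, 105 kept it without any 1 of the 6 libraries at 24 h and 0 h, and 0 changed sign. Library size scaling ended 25 calls, each of a gene lower at 24 h, and upper-quartile factors 12, each of a gene higher at 24 h. DESeq2 ended 9. For 24 h against 0 h, genes higher numbered 1928 and genes lower 1874 when only the 6 libraries were fitted. With library size scaling they numbered 2560 and 622. Without any 1 library, genes higher ranged from 738 to 1161 and genes lower from 709 to 1120. With the replicate block they were 1335 and 1327. The replicate numbers did not pair the libraries: deviations of same-numbered libraries at 24 h and 0 h correlated at -0.001, -0.03 and -0.035, and none correlated best with its own number. The block ended the calls of Cd5 (adjusted p = 0.0555) and Trib3 (adjusted p = 0.0502). Tests against a log2 fold change of at least 1 (glmTreat in edgeR) called 0 higher and 0 lower, with 43 and 122 at an unadjusted p below 0.05.

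For 24 h against 18 h, genes higher and lower numbered 0 and 6 with library size scaling, where 644 and 411 had an unadjusted p below 0.05, 4 and 27 with DESeq2, 10 and 54 without a filter, and 118 and 223 when only the 6 libraries were fitted. They numbered 26 and 87 without library 1 at 6 h and at 12 h, an alternative chosen after seeing the data, and 4 and 25 with the replicate block. Without any 1 library they ranged from 0 to 1 and from 1 to 27. The cause of these differences was not tested. Depth, 2660641 to 6258268 counts per library, limits what can be called in genes of a few CPM.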

Other observations

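Tubulin genes, picked out after their values were seen and in no list, were higher at 24 h. Of 11 tested, 8 were higher and 0 lower by edgeR, with a median log2 fold change of 1.08 and of 1.27 with library size scaling. Tuba1b, an alpha tubulin, averaged 651 ± 11 CPM at 24 h and 270 ± 40 CPM at 0 h (SD, n = 3 each), a log2 fold change of 1.27 ± 0.15. Tubb5, a beta tubulin, averaged 832 ± 15 CPM at 24 h and 372 ± 35 CPM at 0 h, and Stmn1, which binds tubulin dimers, 528 ± 35 CPM at 24 h and 278 ± 21 CPM at 0 h. Guanylate-binding protein genes, interferon-inducible GTPases, went the other way, with 0 of 10 higher and 6 lower and a median of -0.77. Gbp4 averaged 26.0 CPM at 24 h and 48.7 CPM at 0 h, while the more abundant Gbp7 averaged 129 ± 4.1 CPM at 24 h and 123 ± 5.3 CPM at 0 h and did not pass. Near-identical copies make reads of single members of both families uncertain.

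Gene classes of the annotation differed in their calls. Of 10592 protein-coding genes tested, 10.8% were higher and 8.0% lower at 24 h. Of 275 lincRNA genes, 1.5% were higher and 24.7% lower, and of 372 genes marked as unverified transcripts (TEC), 0.0% were higher and 24.2% lower. Genes of microRNAs went the other way, with 29.1% higher and 3.8% lower of 79. Their median log2 fold change was 0.12, against 0.03 for protein-coding genes. The counts do not separate a mature microRNA from a longer transcript over the same bases. Antisense genes had 4.3% higher and 15.2% lower of 376. The share of reads in no annotated feature was also lower at 24 h, at 17.8% to 18.4%, against 21.1% to 22.2% at 0 h, and its part in these calls was not tested. Mitochondrial transfer RNA genes had 15 of 20 lower and 0 higher.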
